A study of Mus musculus with 4 samples.

Results

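The heart receives opposing signals from the sympathetic and the parasympathetic nerves, and 7 genes of this autonomic signalling were described here in whole mouse hearts without the microRNA miR-1. They encode 4 receptors, Adrb1, Adra1a, Adra1b and Chrm2, and 3 enzymes that make or break down amine transmitters, Ddc, Maoa and Maob. The genes were selected on their names as receptors or enzymes, with earlier results of these libraries in view, among them the FPKM values of Ddc, so the levels and changes given for them are descriptions and carry no test. The 7 genes are 7 of the 22552 gene rows that each deposited table holds, with 1 row per gene.

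Noradrenaline released by sympathetic nerves binds beta-1 receptors on heart muscle, which act through the stimulatory G protein, adenylyl cyclase, cyclic AMP and protein kinase A to speed and strengthen the beat. It also binds alpha-1 receptors, which act through Gq, phospholipase C and protein kinase C. Acetylcholine released by the vagus nerve binds the M2 muscarinic receptor, which acts through inhibitory G proteins and slows the beat. Tyrosine hydroxylase, aromatic L-amino acid decarboxylase and dopamine beta-hydroxylase make noradrenaline in turn, and the monoamine oxidases are among the enzymes that break it down.

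In the study, mice with miR-1-1 and miR-1-2 both deleted (a double knockout, dKO) were set against littermate controls labelled dHET, and the strain is given as Sv129. Each genotype gave 1 library at postnatal day 2.5 (P2.5), read from a single end, and 1 at embryonic day 15.5 (E15.5), read from both ends, all with reads of 100 bases from poly-A selected RNA extracted with TRIzol. The labels give neither the number of hearts in a library nor the way the alleles were made, and the control column is headed as heterozygous in the P2.5 table and as WT in the other. Heart and skeletal muscle hold much miR-1, which acts on transcripts that carry matches to its seed in their 3' UTR and lowers them.

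Each group is 1 library, so replicate error is unknown throughout and each comparison sets 1 library against another. Scaling totals recovered from the tables were 49900000 (dKO) and 44600000 (dHET) fragments at P2.5, and 103900000 (dKO) and 86500000 (dHET) at E15.5. The 4 libraries held 11502 to 11585 genes with an FPKM (fragments for each kilobase of transcript, scaled to 1000000 fragments) of at least 1. All 12 heart muscle genes used to check the tissue had an FPKM of at least 1 at P2.5 and 11 of 12 at E15.5, where the row of Myh7 was flagged for too much data. The hairpin rows of the targeted genes, Mir1a-1 and Mir1a-2, were listed at 0 in all 4 libraries, which checks nothing in poly-A selected RNA. At P2.5 the dKO and dHET libraries also differed in sex: Xist had 50.7 FPKM in dKO and 0.101 in dHET, and the Y-linked Eif2s3y had 0.0113 in dKO and 36.1 in dHET. At E15.5 the Y-linked Ddx3y had 14.8 FPKM in dKO and 15.3 in dHET, so both libraries held male RNA. These values do not show whether female hearts were in a library too. Genotype and sex cannot be told apart at P2.5. In whole hearts, fewer cells of a type and less RNA per cell cannot be told apart either.

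The change of a gene was computed within a stage as log2((FPKM dKO + 1)/(FPKM dHET + 1)), which understates the change of low genes. A gene was counted where 1 or both libraries of the stage reached 5 FPKM, and a change of at least 1.5-fold was the mark for higher or lower. At P2.5, 5 of the 7 genes were counted, 1 was lower in dKO (Ddc) and 0 were higher, against 1.15% of the 8197 counted genes lower and 3.59% higher. At E15.5, 3 of the 7 were counted, 1 was lower (again Ddc) and 0 were higher, against 0.566% of 8308 counted genes lower and 0.494% higher. Since Ddc was among the values in view when the genes were selected, its count is given beside these shares without being read against them. The median change of the 7 genes was -0.099 in the P2.5 pair and 0.058 in the E15.5 pair, beside 0.083 and -0.012 for all counted genes. The 6 genes other than Ddc, counted or not, lay between -0.27 and 0.13 at P2.5, 5 of them within 1.2-fold. Of the counted genes alone, 66.7% were within 1.2-fold. At E15.5 they lay between -0.036 and 0.40, 4 of them within 1.2-fold, as were 91.4% of all counted genes.

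**Figure D1:**
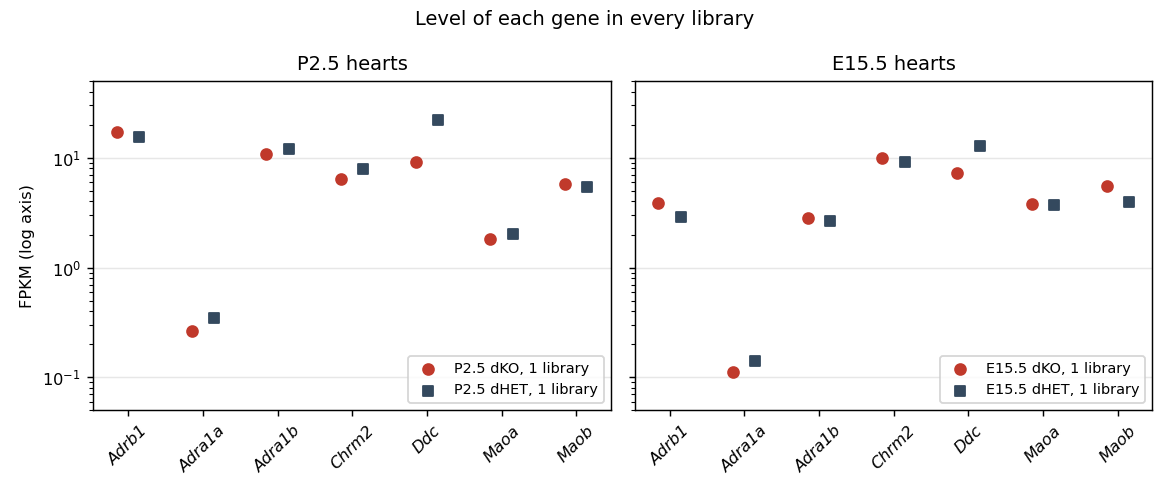
Level of the 7 genes in each of the 4 libraries, in FPKM on a log axis, with P2.5 hearts on the left and E15.5 hearts on the right. Circles are dKO libraries and squares dHET libraries, 1 library each. The widest gap between the genotypes is at Ddc, with 9.17 FPKM in dKO against 21.9 in dHET at P2.5, and 7.21 against 12.8 at E15.5.

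The 3' UTRs of the 7 genes were searched for words that pair with the seed of miR-1, since transcripts with such words are those the microRNA could bind directly. The longest annotated 3' UTR of each gene was taken from GENCODE release M1 on NCBIM37, the assembly of mm9. The word ACATTCC, which pairs with bases 2 to 8 of miR-1, was in 0 of the 7 genes, beside 9.13% of 19915 genes with a 3' UTR. The word CATTCCA, which pairs with bases 2 to 7 and ends in an A, was in 4 of the 7, beside 10.8% of all genes, and the miR-133 word GGACCAA, searched as a comparison, was in 0 of the 7, beside 7.43%. The words were searched on the transcript strand only, and the first 2 overlap by 6 bases. Shorter matches, coding sequence and other 3' UTRs of the 7 genes were not searched. The 5 matches are shown because they are the places found that could pair with miR-1. Each has 10 bases on either side, 5′ to 3′ on the transcript strand, with the word in capitals.
Adra1a, chr14:67348052-67348058, plus strand: ctatacctgcCATTCCActgtaaaaat
Adra1a, chr14:67348713-67348719, plus strand: agcggggtacCATTCCAtgttactgat
Adra1b, chr11:43588546-43588552, minus strand: tagacaaggcCATTCCAaaaagtacac
Chrm2, chr6:36476364-36476370, plus strand: cctcctccgcCATTCCAtgagtattgc
Maob, chrX:16309278-16309284, minus strand: tgattagtgcCATTCCAcctgctttgg
The match in Chrm2 lies beyond the end of the authors' locus. The match in Maob was found in the longest 3' UTR of its 4 coding transcripts, and the others were not searched. It starts at 16309278, well inside the authors' locus, whose 3' end on the minus strand is at 16286407. Whether the transcript behind the deposited Maob row holds the match was not tested. The gene lower in dKO, Ddc, has a 3' UTR of 434 bases with none of the 3 words, and Adrb1 and Maoa hold none either. The median 3' UTR of all genes is 893 bases, and that of Chrm2 has 3804. A match is a description of the letters and not a site shown to be used.

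Adrb1 (chromosome 19, 56796862 to 56799352 in mm9) encodes the beta-1 adrenergic receptor, the main receptor for noradrenaline on heart muscle. It had 17.0 FPKM in the dKO library and 15.4 in the dHET library at P2.5, a change of 0.13 that turned to -0.033 when each library was rescaled to the same sum. With that rescaling the P2.5 median over all counted genes was -0.082, in place of 0.083. At E15.5 it had 3.89 FPKM in dKO and 2.90 in dHET, a change of 0.32 below the counting minimum. Adrb1 was the highest of the 7 genes in the P2.5 dKO library and the fourth of 7 in the E15.5 dKO library, and its change did not reach 1.5-fold at either stage. Adrb3, the beta-3 receptor, stayed at or under 0.200 FPKM in the 4 libraries.

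Adra1b (chromosome 11, 43588108 to 43649834), an alpha-1 receptor, had 10.8 FPKM in dKO and 12.0 in dHET at P2.5, and 2.84 in dKO and 2.68 in dHET at E15.5. Its changes were -0.13 and 0.058. Adra1a (chromosome 14, 67254095 to 67352166), a second alpha-1 receptor, was the lowest of the 7 genes in every library, at 0.266 FPKM in dKO and 0.347 in dHET at P2.5, and 0.112 in dKO and 0.140 in dHET at E15.5. These levels rest on about 57 fragments in dKO and 66 in dHET at P2.5, with 95% Poisson intervals of 43.2 to 73.9 and 51.0 to 84.0 that overlap and cover counting error only. At E15.5 about 50 fragments in dKO and 52 in dHET gave intervals of 37.1 to 65.9 and 38.8 to 68.2. The counts are not scaled for the differing library totals, so overlap of the intervals does not compare levels. With so few fragments, and no call in the authors' deposited table, no difference in Adra1a was detectable at either stage. The third member, Adra1d, had 1.11 FPKM in dKO and 1.02 in dHET at P2.5, and 0.530 in dKO and 0.947 in dHET at E15.5.

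Of the 9 adrenergic receptor genes in the tables, 3 had 1 FPKM or more in a library at P2.5 (Adrb1, Adra1b and Adra1d) and 2 did at E15.5 (Adrb1 and Adra1b). The summed level of the 9 was 29.8 FPKM in dKO and 29.3 in dHET at P2.5, and 8.02 in dKO and 7.36 in dHET at E15.5. The alpha-2 receptors Adra2a, Adra2b and Adra2c, which on sympathetic nerve endings limit transmitter release, stayed at or under 0.165 FPKM. Most of each sum came from Adrb1 and Adra1b. With 1 added to each FPKM none of the 9 reached 1.5-fold. Adra1d came nearest, at -0.35 at E15.5, where the authors' deposited table, with no such addition, gives -0.84 with a p-value of 0.0393 and a q-value of 0.999909. All 9 lay below the counting minimum at E15.5, and the authors' deposited table called none of them significant.

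Chrm2 (chromosome 6, 36283138 to 36474774) encodes the M2 muscarinic receptor, the main acetylcholine receptor of heart muscle. It had 6.42 FPKM in dKO and 7.92 in dHET at P2.5, a change of -0.27, and 9.88 in dKO and 9.15 in dHET at E15.5, a change of 0.099. The P2.5 change, 1.203-fold lower in dKO, was the largest at that stage among the 6 genes other than Ddc. In the authors' deposited table its p-value was 0.387 for the P2.5 pair and 0.598 for the E15.5 pair. The other 4 muscarinic receptors were between 0 and 0.326 FPKM, with Chrm3 the highest of them. Atrial muscle, which is rich in M2 receptors, was followed by 14 markers: their summed level was 1316 FPKM in dKO and 314 in dHET at P2.5, and 2411 in dKO and 1776 in dHET at E15.5. Most of the P2.5 sum was Nppa, at 1021 FPKM in dKO and 182 in dHET, and of the 8 counted markers 4 were at least 1.5-fold higher (Myl4, Myl7, Nppa and Sln) and none lower. Over the 12 atrial markers with 1 FPKM or more at P2.5 the median change was 0.17, and 3 of them lay below 0, among them Kcnj3 at -0.92. The 13 atrial markers with 1 FPKM or more in the E15.5 pair had a median change of 0.025, with 7 above 0 and 6 below. Of the 8 counted there, Nppa and Sln alone passed 1.5-fold, both on the higher side. Among all counted genes, 3.59% passed it on that side in the P2.5 pair and 0.494% in the E15.5 pair. The part of atrial muscle in the level of Chrm2 was not tested.

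Ddc (chromosome 11, 11714104 to 11798147) encodes aromatic L-amino acid decarboxylase, which turns L-DOPA into dopamine and 5-hydroxytryptophan into serotonin. It had 9.17 FPKM in the dKO library and 21.9 in the dHET library at P2.5, and 7.21 in dKO and 12.8 in dHET at E15.5. The dKO library was the lower one at both stages. The change was -1.17 at P2.5 (2.25-fold lower in dKO) and -0.75 at E15.5 (1.68-fold lower). About 891 fragments in dKO and 1902 in dHET stood behind the P2.5 levels, and 1458 in dKO and 2155 in dHET behind the E15.5 levels.

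The authors' deposited table called Ddc significant at both stages, and these calls compare 2 libraries and not genotypes. Their deposited log2 fold change was -1.26 with a q-value of 0.0131 at P2.5, and -0.83 with a q-value of 0.0133 at E15.5. The test statistics of the authors' deposited table imply standard errors of 0.31 and 0.21 for these values, which do not hold the variation between hearts. Such calls were made for 0.406% of the 13537 genes with a test at P2.5 and for 0.936% of 14417 at E15.5, and for 1 of the 7 genes at each stage. By its change, Ddc was the 12th lowest of 8197 counted genes at P2.5 and the 23rd lowest of 8308 at E15.5.

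Ddc was the highest of the 7 genes in both dHET libraries, and the third at P2.5 and the second at E15.5 in the dKO libraries. At P2.5 Adrb1 and Adra1b stood above it in dKO, while in dHET the 3 followed the order Ddc, Adrb1, Adra1b. At E15.5 Chrm2 stood above it in dKO and below it in dHET. Among all usable genes, Ddc held level rank 5602 in dKO and 2295 in dHET at P2.5, and 6677 in dKO and 4131 in dHET at E15.5, where 1 is the highest level. Among the 7650 genes counted at both stages, 8 were at least 1.5-fold lower in dKO at both, namely Ddc, Htra3, Kbtbd10, Mfap4, Mfap5, Nov, Serpinb6b and Tmem71, and 26 were higher at both. No other gene was at least as low as Ddc at both stages. Of the 12 genes that the authors' deposited tables call significant at both stages, 2 were lower in dKO at both, Ddc and Kbtbd10.

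The genes nearest to Ddc when both changes were plotted, P2.5 against E15.5, over 4 libraries in all, were Kbtbd10, Mfap5 and Serpinb6b, at distances of 0.047, 0.093 and 0.22 on the log2 scale. Kbtbd10, a kelch-domain protein of striated muscle, had 8.83 FPKM in dKO and 20.6 in dHET at P2.5, and 4.83 in dKO and 8.60 in dHET at E15.5. Mfap5, a microfibril-associated glycoprotein of the extracellular matrix used here as a fibroblast marker, had 8.16 in dKO and 18.6 in dHET at P2.5, and 2.78 in dKO and 5.09 in dHET at E15.5. Serpinb6b, a serine protease inhibitor, had 2.97 in dKO and 7.43 in dHET at P2.5, and 2.56 in dKO and 5.87 in dHET at E15.5.

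**Figure D2:**
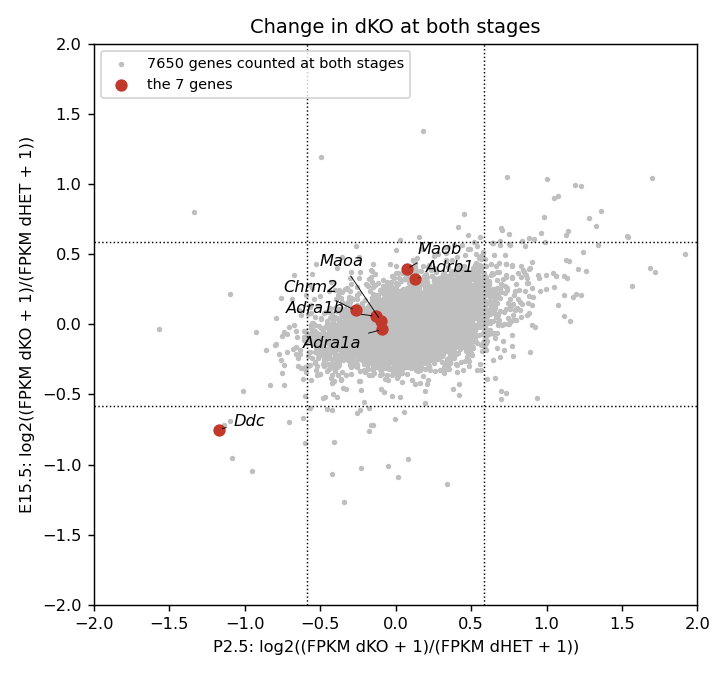
Change in dKO at P2.5 (horizontal) against the change at E15.5 (vertical), both as log2((FPKM dKO + 1)/(FPKM dHET + 1)), for the 7650 genes counted at both stages (grey) and the 7 genes, counted or not (red). Dotted lines mark 1.5-fold, and 9 of the grey genes lie outside the axes, which end at 2. Ddc lies at -1.17 and -0.75, past the line at both stages, and the other 6 genes lie inside the lines.

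Ddc lies next to Grb10 in a stretch of mouse chromosome 11 known for imprinting, and a Ddc transcript from an alternative first exon is known to be read mainly from the paternal copy in the developing mouse heart. The RefSeq promoter table (build GRCm38.p6) lists 2 starts for Ddc, both matched once on NCBIM37, the assembly of mm9, and they lie 7736 bases apart on the minus strand. They are shown because Ddc is the 1 gene of the 7 that passed 1.5-fold, and its deposited row gives a single FPKM value that does not separate transcripts by their start. Start 1 lies at chr11:11798098-11798397 and its first transcribed base is the end of the authors' locus. Start 2 lies at chr11:11790362-11790661. Each sequence runs 5′ to 3′ on the minus strand, with the 250 bases before the start in lower case and the 50 bases from the start on in capitals.
Ddc start 1: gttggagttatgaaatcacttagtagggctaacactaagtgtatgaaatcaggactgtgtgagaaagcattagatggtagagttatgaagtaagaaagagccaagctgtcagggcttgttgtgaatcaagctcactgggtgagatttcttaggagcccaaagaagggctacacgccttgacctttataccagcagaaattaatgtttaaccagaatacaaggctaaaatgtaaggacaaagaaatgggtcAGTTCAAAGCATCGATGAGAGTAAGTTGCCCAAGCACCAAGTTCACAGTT
Ddc start 2: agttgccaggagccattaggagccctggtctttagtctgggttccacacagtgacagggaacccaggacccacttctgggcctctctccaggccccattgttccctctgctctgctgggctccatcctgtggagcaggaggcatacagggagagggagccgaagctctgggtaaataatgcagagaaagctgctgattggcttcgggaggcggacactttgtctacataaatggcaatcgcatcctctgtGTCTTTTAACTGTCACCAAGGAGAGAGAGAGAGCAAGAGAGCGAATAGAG
The window of start 1 has a GC content of 41.3% and 2 CpG, and that of start 2 has 54.3% and 5 CpG, beside a median of 52.7% and 7 CpG over 32851 promoters of the same length. The GENCODE release M1 annotation places 2 transcripts of Ddc within 50 bases of start 2 and 0 within 50 bases of start 1. The other coding Ddc transcript begins 100 bases downstream of start 1. Which start the reads came from was not analysed here.

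The neighbours of Ddc did not share its change. Fignl1, which lies 5139 bases away and encodes an AAA ATPase, had 6.87 FPKM in dKO and 6.86 in dHET at P2.5, and 10.7 in dKO and 12.2 in dHET at E15.5, a change of -0.17. Grb10, 32355 bases away on the other side, encodes an adaptor that restrains growth factor signalling. It had 167 FPKM in dKO and 163 in dHET at P2.5, and 339 in dKO and 389 in dHET at E15.5, changes of 0.036 and -0.20. Of the 3 adjacent genes, Ddc alone passed 1.5-fold at each stage.

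Transcripts for the steps before and after Ddc in noradrenaline synthesis were low in the RNA of these hearts. Neither protein nor noradrenaline was measured. Th, the rate-limiting tyrosine hydroxylase, was listed at 0 in both P2.5 libraries and had 0.0164 FPKM in dKO and 0.0527 in dHET at E15.5. Dbh, which turns dopamine into noradrenaline, had 0.852 FPKM in dKO and 1.41 in dHET at P2.5, and 0.118 in dKO and 0.122 in dHET at E15.5. Pnmt, which makes adrenaline from noradrenaline, stayed under 0.365 FPKM in 3 libraries and had 0.365 in the E15.5 dHET library. Ddc was expressed at 7.21 FPKM or more in every library while the enzymes on either side of it reached 1.41 FPKM at most.

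Markers of other cell types are given beside Ddc, first those of autonomic neurons, sympathetic and parasympathetic, and of chromaffin-like cells. Of 21 markers of autonomic neurons, 4 were at 0 in both P2.5 libraries (Th, Slc18a3, Insm1 and Chga), and their summed level was 26.0 FPKM in dKO and 19.8 in dHET at P2.5, and 38.1 in dKO and 39.5 in dHET at E15.5. The 8 chromaffin-like markers summed to 1.23 FPKM in dKO and 1.71 in dHET at P2.5, and to 0.599 in dKO and 0.783 in dHET at E15.5. Most of the neuron sum was Uchl1, a ubiquitin hydrolase abundant in neurons, at 17.7 FPKM in dKO and 10.9 in dHET at P2.5. Without Uchl1 the other 20 neuron markers summed to 8.24 FPKM in dKO and 8.91 in dHET at P2.5, and to 14.7 in dKO and 14.4 in dHET at E15.5. Of the 5 neuron markers with 1 FPKM or more at P2.5, 3 lay below 0, and their median change was -0.16. The markers of other cells lay on both sides of 0 at P2.5. Over markers with 1 FPKM or more, the median change was 0.24 for heart muscle, 0.28 for ventricular muscle and 0.17 for atrial muscle. It was 0.23 for smooth muscle, 0.21 for Schwann cells and 0.091 for endothelium. The median was below 0 for pacemaker and conduction cells (-0.15), macrophages and fibroblasts. Of the macrophage markers, all 9 with 1 FPKM or more lay below 0 at P2.5, with a median of -0.27, and 5 of 9 did at E15.5, with a median of -0.050. Of 10 fibroblast markers, 7 lay below 0 at P2.5, with a median of -0.21, and 8 at E15.5, with a median of -0.11. Dcn, Lum and Mfap5, which encode matrix proteins, were the fibroblast markers at least 1.5-fold lower at P2.5, and Mfap5 was at least 1.5-fold lower at E15.5 too. The summed fibroblast level was 1531 FPKM in dKO and 1477 in dHET at P2.5, and 1103 in dKO and 1155 in dHET at E15.5. The part of any of these cells in the level of Ddc was not tested.

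Enzymes that supply tetrahydrobiopterin, the cofactor of tyrosine and tryptophan hydroxylases, had higher values in dKO than in dHET at both stages, and 1 of the 5 passed 1.5-fold, at P2.5. Among all genes expressed at 1 FPKM or more, 60.7% had a change above 0 at P2.5 and 47.6% at E15.5, and 3.59% of the counted genes passed 1.5-fold on the higher side at P2.5. Spr, the sepiapterin reductase of the last synthetic step, had 37.8 FPKM in dKO and 21.0 in dHET at P2.5, a change of 0.82, and 25.9 in dKO and 21.7 in dHET at E15.5, a change of 0.24. Qdpr and Pcbd1, which regenerate the cofactor, changed by 0.54 and 0.55 at P2.5 and by 0.23 and 0.31 at E15.5. Qdpr had 40.8 FPKM in dKO and 27.7 in dHET at P2.5, and Pcbd1 had 17.2 in dKO and 11.4 in dHET. Pts, the pyruvoyl synthase of the middle step, had 16.7 FPKM in dKO and 11.7 in dHET at P2.5, and 12.0 in dKO and 9.67 in dHET at E15.5. Gch1, the first enzyme, had 3.57 in dKO and 2.72 in dHET at P2.5, and 2.04 in dKO and 1.72 in dHET at E15.5. The authors' deposited table called none of these 5 genes significant.

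The synthesis list held 12 genes, 8 of them with 1 FPKM or more in a library at P2.5 and 7 at E15.5. Of 5 counted genes at each stage, 1 was higher (Spr) and 1 lower (Ddc) at P2.5, and 0 were higher and 1 lower (Ddc) at E15.5. Over all counted genes 3.59% were higher and 1.15% lower at P2.5, and 0.494% higher and 0.566% lower at E15.5. The median change of the list was 0.38 in the P2.5 pair and 0.23 in the E15.5 pair, with Ddc the lowest member at both stages.

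**Figure D3:**
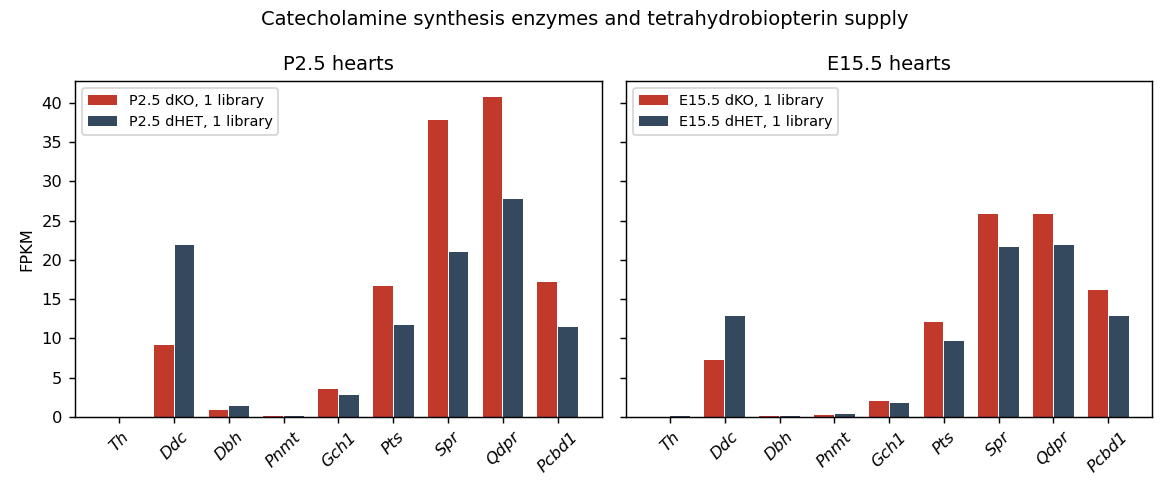
Level in FPKM (bars from 0, 1 library each, dKO in red and dHET in dark blue) of the catecholamine synthesis enzymes Th, Ddc, Dbh and Pnmt and of 5 enzymes of tetrahydrobiopterin supply, at P2.5 on the left and E15.5 on the right. Ddc is the lower bar in dKO at both stages, with 9.17 FPKM against 21.9 in dHET at P2.5, whereas Spr has 37.8 in dKO against 21.0 in dHET.

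Maoa and Maob encode the monoamine oxidases A and B of the mitochondrial outer membrane, which oxidise noradrenaline, dopamine and serotonin to differing degrees. They lie on the X chromosome in opposite directions, Maoa at 16196824 to 16264938 and Maob at 16286407 to 16394492, with 21469 bases between them. Maoa had 1.82 FPKM in dKO and 2.02 in dHET at P2.5, and 3.78 in dKO and 3.69 in dHET at E15.5, changes of -0.099 and 0.027. Maob had 5.73 FPKM in dKO and 5.40 in dHET at P2.5, a change of 0.072 that turned to -0.083 when each library was rescaled to the same sum.

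At E15.5 Maob had 5.53 FPKM in dKO and 3.97 in dHET, a change of 0.40, or 1.32-fold higher in dKO. This was the largest change at E15.5 among the 6 genes other than Ddc, and the 131st highest of the 8308 counted genes. In the authors' deposited table its p-value was 0.0493 and its q-value 0.999909, and it was not called. Maob was above Maoa in each of the 4 libraries, by the widest margin in the P2.5 dKO library. Since the P2.5 libraries differed in sex, the 233 counted X-linked genes of that stage are given beside this pair: their median change was -0.010, against 0.085 for 7961 autosomal genes. At E15.5 the median was -0.016 for 262 X-linked and -0.012 for 8041 autosomal genes.

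Of the 12 genes on the breakdown list, 6 were counted at P2.5 and 5 at E15.5, and none of these reached 1.5-fold. The median change of the 12 was 0.069 in the P2.5 pair, which turned to -0.094 with rescaling to the same sum, and 0.089 in the E15.5 pair. The aldehyde dehydrogenase Aldh2 had 26.6 FPKM in dKO and 27.3 in dHET at P2.5, and 15.9 in dKO and 15.1 in dHET at E15.5. Sult1a1, a sulfotransferase, had 3.45 in dKO and 2.30 in dHET at E15.5, a change of 0.43, and its P2.5 change was 0.19. The most abundant of the 12 was Akr1a4, an aldehyde reductase, with 216 FPKM in dKO and 174 in dHET at P2.5.

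Transcripts of transporters that take amines up into nerve endings and vesicles were low, and protein was not measured. Of 11 transporter genes, 1 had 1 FPKM or more in a library at each stage, the vesicular monoamine transporter Slc18a2. It had 0.843 FPKM in dKO and 1.06 in dHET at P2.5, and 2.91 in dKO and 1.79 in dHET at E15.5, changes of -0.16 and 0.49. The noradrenaline transporter Slc6a2 was between 0.0171 and 0.0660 FPKM. The authors' deposited table called 1 of the 11 at E15.5, the choline transporter Slc5a7, with 0.0279 FPKM in dKO and 0.143 in dHET. Over all genes with a test it called 0.936% at that stage. None of 16 further receptors for serotonin, dopamine and histamine reached an FPKM of 1.

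On the acetylcholine side, the synthetic enzyme Chat was at or under 0.0123 FPKM in the 4 libraries, whereas genes of acetylcholine breakdown were expressed. Colq, the collagen tail that anchors acetylcholinesterase, had 6.45 FPKM in dKO and 2.78 in dHET at P2.5, a change of 0.98, and 4.87 in dKO and 3.46 in dHET at E15.5, a change of 0.40. Its q-value in the authors' deposited table was 0.116 in the P2.5 pair and 0.999909 in the E15.5 pair. Butyrylcholinesterase (Bche) had 7.95 FPKM in dKO and 11.6 in dHET at P2.5, and 13.95 in dKO and 14.19 in dHET at E15.5. Acetylcholinesterase (Ache) had 1.28 in dKO and 1.05 in dHET at P2.5, and 2.79 in dKO and 1.80 in dHET at E15.5. Of the 2 counted genes at P2.5, 1 was at least 1.5-fold higher (Colq), and of 1 counted at E15.5 none was. Over all counted genes 3.59% were higher at P2.5 and 0.494% at E15.5.

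Downstream of the receptors, 92 genes on 6 lists were followed: G protein subunits, adenylyl cyclases and phosphodiesterases, protein kinase A and its anchors, desensitisation, the phospholipase C branch, and effector channels and substrates. At P2.5, 69 of them were counted. On the higher side 0 passed 1.5-fold, beside 3.59% of all counted genes. On the lower side 1 did (Pln), or 1.45%, near the 1.15% of all counted genes. At E15.5, 71 were counted, with 0 on the higher side, beside 0.494% of all counted genes. On the lower side there was 1 (Rgs5), or 1.41%, beside 0.566% of all counted genes. The authors' deposited table called none of the 92 at P2.5 and 3 at E15.5, Adcy7, Rgs4 and Rgs5. Over all genes with a test it called 0.406% at P2.5 and 0.936% at E15.5.

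On the beta-1 branch, the stimulatory subunit Gnas had 705 FPKM in dKO and 668 in dHET at P2.5, and 759 in dKO and 752 in dHET at E15.5. The cyclase Adcy5 had 56.8 in dKO and 42.9 in dHET at P2.5, and 35.8 in dKO and 29.2 in dHET at E15.5, changes of 0.40 and 0.29. Adcy7, another cyclase, had 3.85 in dKO and 1.4996 in dHET at P2.5, and 4.39 in dKO and 2.52 in dHET at E15.5. Its changes of 0.96 and 0.61 passed 1.5-fold below the counting minimum, and the authors' deposited table gives a q-value of 0.0809 for the P2.5 pair and 0.0279 for the E15.5 pair. Among the kinase A genes, the inhibitor Pkia had 12.6 FPKM in dKO and 19.2 in dHET at P2.5, a change of -0.57, and -0.20 at E15.5. Phospholamban (Pln), the calcium pump brake that kinase A releases, had 731 FPKM in dKO and 1266 in dHET at P2.5, a change of -0.79, and 444 in dKO and 490 in dHET at E15.5, a change of -0.14. Its P2.5 q-value in the authors' deposited table was 0.999987. The inhibitor subunit Ppp1r1a of protein phosphatase 1 had 6.27 in dKO and 9.40 in dHET at P2.5, a change of -0.52.

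On the M2 branch, the inhibitory subunit Gnai2 had 214 FPKM in dKO and 170 in dHET at P2.5, and 166 in dKO and 157 in dHET at E15.5. The acetylcholine-gated potassium channel is made of the products of Kcnj3 and Kcnj5. Kcnj3 had 0.811 FPKM in dKO and 2.43 in dHET at P2.5, a change of -0.92 below the counting minimum, and 2.28 in dKO and 2.60 in dHET at E15.5. Kcnj5 had 31.5 in dKO and 26.5 in dHET at P2.5, and 19.0 in dKO and 14.7 in dHET at E15.5. The 2 subunits had changes of opposite sign at both stages. Hcn4, a pacemaker channel regulated by cyclic AMP, had 3.14 FPKM in dKO and 2.06 in dHET at P2.5, and 5.65 in dKO and 4.32 in dHET at E15.5.

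On the alpha-1 branch, 10 of 12 genes had an FPKM of at least 1 at P2.5 and 9 of these had a change above 0, and 10 of 11 did at E15.5. Over all genes with 1 FPKM or more, 60.7% had a change above 0 at P2.5 and 47.6% at E15.5. No counted gene reached 1.5-fold. The median change was 0.22 in the P2.5 pair and 0.16 in the E15.5 pair, and at P2.5 it was 0.068 with each library rescaled to the same sum. The protein kinase C genes Prkcd and Prkce changed by 0.52 and 0.42 at P2.5, and the inositol trisphosphate receptor Itpr1 had 14.3 FPKM in dKO and 10.8 in dHET at P2.5, and 15.8 in dKO and 12.0 in dHET at E15.5.

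Among genes that end receptor signalling, the receptor kinases Grk5 and Grk6 changed by 0.46 and 0.47 at P2.5 and by 0.25 and 0.12 at E15.5. Rgs5, a GTPase activator also used here as a smooth muscle marker, had 14.5 FPKM in dKO and 25.1 in dHET at E15.5, a change of -0.76, and 52.1 in dKO and 58.8 in dHET at P2.5. Rgs4, of the same family, had 1.41 FPKM in dKO and 3.26 in dHET at E15.5, a change of -0.83 below the counting minimum, and -0.088 at P2.5. The 9 smooth muscle markers summed to 2375 FPKM in dKO and 1617 in dHET at E15.5, a sum carried by Acta2 and Myl9. Of the 9, 6 lay below 0, and the median change of the 9 was -0.30. Of the 7 counted, 1 was at least 1.5-fold higher (Acta2) and 2 lower (Myh11 and Rgs5), beside 0.494% and 0.566% of all counted genes. The authors' deposited table called 4 of the 9 markers significant at E15.5, Actg2, Lmod1, Myh11 and Rgs5, each lower in dKO. Over all genes with a test it called 0.936% at that stage. The part of smooth muscle in the values of Rgs4 and Rgs5 was not tested.

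**Figure D4:**
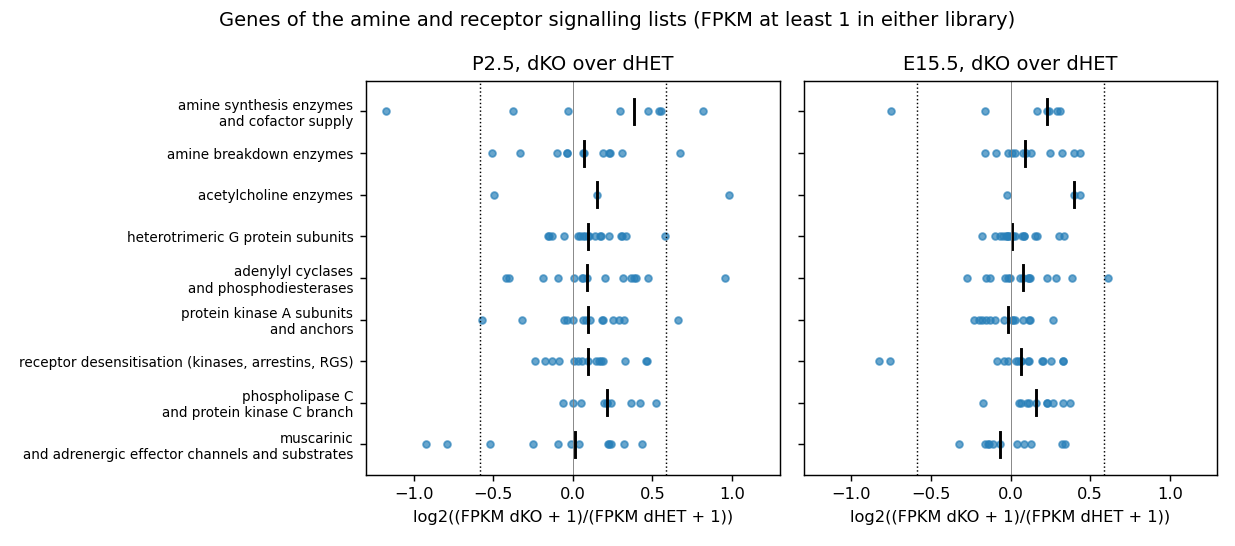
Change in dKO of single genes (points, FPKM of at least 1 in either library) on 9 lists of amine enzymes and receptor signalling, at P2.5 on the left and E15.5 on the right, as log2((FPKM dKO + 1)/(FPKM dHET + 1)). Black bars are list medians and dotted lines mark 1.5-fold. The leftmost point of the synthesis list is Ddc, at -1.17 and -0.75, and few other points pass the lines.

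Most growth and guidance factors for cardiac nerves were low. Of 14 genes, 7 had an FPKM of at least 1 at P2.5 and 6 at E15.5, and the 1 counted gene at each stage, Nrtn, did not reach 1.5-fold. Nrtn, which encodes neurturin, a survival factor of parasympathetic neurons, had 16.7 FPKM in dKO and 14.99 in dHET at P2.5, and 5.57 in dKO and 5.18 in dHET at E15.5. Sema3a, which repels sympathetic axons, had 1.02 in dKO and 1.34 in dHET at P2.5, and 4.03 in dKO and 3.71 in dHET at E15.5. The authors' deposited table called 1 of the 14 at E15.5, the neurotrophin Bdnf, with 0.0504 FPKM in dKO and 0.26 in dHET. Over all genes with a test it called 0.936% at that stage.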

How the data were processed

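RNA from 4 libraries of whole mouse heart, 1 for each genotype and stage, was read from 2 deposited tables. The authors' values are FPKM. Further deposited columns hold a test statistic (a score), a p-value and q-value, the log2 fold change and a status flag per gene. Per the submitters' processing notes, TopHat, Bowtie and Cufflinks were used with the genome build mm9, without versions given. The treatment of strand and of reads with several matches is not given in the sources used here. A total of 86 rows per file displaced by commas in gene names were realigned on their position column.

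The deposited fold change runs dKO over control at P2.5 and control over dKO at E15.5, and the E15.5 sign was turned. The control column headed WT was taken as the E15.5 dHET library, the only control sample of that stage. Rows with status OK or NOTEST were used (22377 at P2.5 and 22374 at E15.5), with a pseudocount of 1, a counting minimum of FPKM 5 and a fold of 1.5. The stages were normalized separately, so no change between stages was computed. Scaling totals came from the FPKM of genes at 1 fragment, and approximate fragments from FPKM, the longest GENCODE transcript and these totals. The change and the calls were tested on simulated data. The recovery of the scaling totals, on which the approximate fragments rest, was not tested. Python 3.11.15, numpy 2.4.6, pandas 2.3.3, scipy 1.17.1 and matplotlib 3.10.9 were used.

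The 7 genes and the 14 gene lists were chosen with earlier results of these data known. Named were the 7 genes, up to 4 list members with the largest change, counted list members past 1.5-fold, neighbours of Ddc, markers at 0 and the genes nearest to Ddc. Th, Dbh, Pnmt, Gch1, Aldh2, Gnas, Slc6a2, Chat, the named cell type markers above 0, Nrtn, Slc5a7, Bdnf, the genes lower at both stages and the receptors at low levels were named after their values were seen. Some genes that the naming rule covers are not reported here. With 1 library per group no test was made. The alternatives were 2 other scalings, 2 other pseudocounts, 2 other filters, 2 uses of the status flags, the deposited fold change, 2 other fold thresholds and, added after seeing the data, an adjustment for transcript GC content and length.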

Additional observations from a re-analysis of the deposited data

Results flagged for a closer look

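Of the 7 genes, 3 had changes of opposite sign at the 2 stages, and these differences between stages were not tested. Chrm2 changed by -0.27 at P2.5 and 0.099 at E15.5, Adra1b by -0.13 and 0.058, and Maoa by -0.099 and 0.027. None of these values reached 1.5-fold. The P2.5 libraries differed in sex and were read from a single end, while the E15.5 libraries both held male RNA and were read from both ends.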

How the results depend on the processing

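No paired analysis was possible because each group has 1 library. At P2.5 the count of 1 gene past 1.5-fold, Ddc, held under all 12 alternatives. At E15.5 the count of genes past 1.5-fold, 1 in the main calculation, was 0 with a pseudocount of 5, where Ddc stood at -0.54, and 0 with a fold threshold of 2; it was 2 with a threshold of 1.3, where 1 gene, Maob, was higher. The counts of lower genes moved in the same way, to 0 and 0. The change of Ddc ranged from -1.40 to -0.93 at P2.5 and from -0.83 to -0.54 at E15.5, and stood at -1.17 and -0.75 when GC content and length were adjusted for. Rescaling each library to a sum of 1000000 moved the median of the counted P2.5 genes to -0.082 and gave 153 higher and 321 lower genes, in place of 294 and 94. Centring on the median gave 180 higher and 161 lower. At P2.5 the sign of Adrb1 turned with rescaling (-0.033) and with the GC adjustment (-0.029), that of Maob with rescaling (-0.083) and with centring on the median (-0.010), and that of Maoa with the GC adjustment (0.097). At P2.5 the medians of the synthesis list (0.055 to 0.54) and of the phospholipase C list (0.068 to 0.24) kept their sign. With 1 library per group, depth limits Adra1a most, at 50 to 66 fragments, and the spread between hearts is unknown for each value.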
